A study of Mus musculus with 11 samples.

Results

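The microRNAs described here are the mature products of the mouse miR-23, miR-27 and miR-24 clusters in feces: miR-23a-3p, miR-23b-3p, miR-27a-3p, miR-27b-3p, miR-24-3p, miR-24-2-5p, and miR-3074-5p and miR-3074-2-3p, which are annotated on the opposite strand of the miR-24 hairpins. They were taken by name from the deposited table, and all 8 were found among its 616 entries. Fecal small RNA of C57BL/6 mice was sequenced at 3 phases of an experimental colitis. The agent was dextran sulfate sodium (DSS), a sulfated sugar polymer that damages the colon's epithelium when given in drinking water. There were 4 libraries from mice before DSS, 3 from mice given 2.5% DSS for 5 days, and 4 from mice that had drunk DSS for 5 days and then DSS-free water for 7 days (day 12). The planned DSS-free period was 13 days, so day 12 fell within it. The labels give no genotype beyond the strain, no age and no sex, and no untreated group of day 5 or day 12 is among the samples, so phase and sampling day cannot be told apart. The labels do not say which libraries came from separate mice, so the spread between libraries may in part be technical.

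Each cluster is transcribed as one primary RNA, from which the hairpins are cut one by one and the arms loaded into Argonaute separately. The 2 clusters are paralogs: their miR-23 and miR-27 products carry the same seeds, the bases that pair with target messages, and both give the same miR-24-3p. These miRNAs are best known from blood vessels, where miR-23 and miR-27 promote angiogenesis in mice, and from immune cells, where miR-24 and miR-27 restrain type 2 helper T cell responses in mice. miR-27 also represses Pparg, a regulator of fat cell formation, and miR-23a and miR-23b repress glutaminase in human cells.

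The mature sequences are shown to let a reader see which products share a seed and which could share reads. Mature sequences from RefSeq, build GRCm38.p6, were matched for 7 of the 8 members, all but miR-23b-3p. Sequences run 5′ to 3′, and the capitals mark the seed, bases 2 to 8.
miR-23a-3p: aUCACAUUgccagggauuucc
miR-27a-3p: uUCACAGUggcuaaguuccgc
miR-27b-3p: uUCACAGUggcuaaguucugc
miR-24-3p: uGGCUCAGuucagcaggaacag
miR-24-2-5p: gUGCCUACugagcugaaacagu
miR-3074-5p: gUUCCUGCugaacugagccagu
miR-3074-2-3p: uGUUUCAGcucaguaggcac
miR-27a-3p and miR-27b-3p share a seed. They differ by 1 of 21 bases, C19U counted from the 5′ end of miR-27a-3p. A read that ends before that base, or an aligner that allows a mismatch there, cannot tell them apart. The Mir23b hairpin holds all bases of miR-23a-3p but the U at the same position, where it has an A. The same limit thus applies to miR-23a-3p and miR-23b-3p.

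The chromosome 8 cluster (Mir23a, Mir27a, Mir24-2) spans 404 bases at chr8:84208518-84208921 on the plus strand, and the chromosome 13 cluster (Mir23b, Mir27b, Mir24-1) spans 792 bases at chr13:63300484-63301275 on the plus strand, both in GRCm38. In the GENCODE M21 annotation, Mir23a and Mir27a overlapped no other gene, and the nearest protein-coding gene was Zswim4 on the minus strand. Mir24-2 overlapped an exon of the long non-coding RNA gene Gm26532 only at an end of the hairpin. Mir3074-2, which lies within the span of Mir24-2 on the minus strand, overlapped no other gene. On chromosome 13, Mir23b lay in an intron of the protein-coding gene 2010111I01Rik on the same strand, and Mir27b and Mir24-1 overlapped exons of it. All 3 also lay within an intron of Fancc, a Fanconi anemia gene on the opposite strand.

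The deposited miRNA counts summed to between 11749 and 40835 per library, with 13240 to 30418 before DSS, 11749 to 17872 on day 5 and 18863 to 40835 on day 12. A total count of 3 in a library, the floor used here, corresponds to 73.5 to 255.3 CPM (a count scaled to a fixed library total). Before-DSS library 2 and day 12 library 4 were taken as standing apart, by different measures. The first had a median log2 correlation with its group of 0.853 (0.964 to 0.966 for the other 3). The second had a first principal component score of 15.2 (the next highest was 6.82). All 4 day 12 libraries had lower median correlations with their own group, 0.797 to 0.849, so that group was spread as a whole. Library numbers are those of the deposited columns. Leaving out both miR-3074 entries, whose counts repeat those of miR-24, the other 6 members summed to 2.42% ± 0.456 of the counts before DSS (SD, n = 4), 1.90% ± 0.401 on day 5 (SD, n = 3) and 2.29% ± 0.325 on day 12 (SD, n = 4).

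miR-27b-3p was the most abundant product, at rank 17 of the 616 entries by mean CPM. Before DSS it stood at 14892, 8837, 16715 and 15752 CPM in libraries 1 to 4. On day 5 it stood at 10016, 13168 and 8937 CPM in libraries 1, 3 and 4. On day 12 the libraries held 16114, 12564, 10848 and 11903 CPM. The 3 phases overlapped, and before-DSS library 2 was the lowest of all 11. Levels are compared between miRNAs as counts of reads of nearly equal length, and library preparation can favour some sequences.

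The order of the products was the same in most libraries. miR-27b-3p exceeded miR-24-3p in 11 of 11 libraries, with a ratio of mean CPM of 2.42, and miR-24-3p exceeded miR-27a-3p in 11 of 11. miR-27a-3p and miR-23a-3p were not separated: miR-27a-3p had more counts in 8 libraries and fewer in 3. miR-23a-3p exceeded miR-23b-3p in 11 of 11, and miR-23b-3p exceeded miR-24-2-5p in 11 of 11. The leading copy differed between the pairs. The chromosome 13 copy was ahead for miR-27, with 4.00 to 10.5 counts of miR-27b-3p per count of miR-27a-3p, and the chromosome 8 copy was ahead for miR-23, with 1.36 to 4.59 counts of miR-23a-3p per count of miR-23b-3p. Within the chromosome 13 cluster, miR-27b-3p had 10.6 to 28.7 counts per count of miR-23b-3p.

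**Figure D1:**
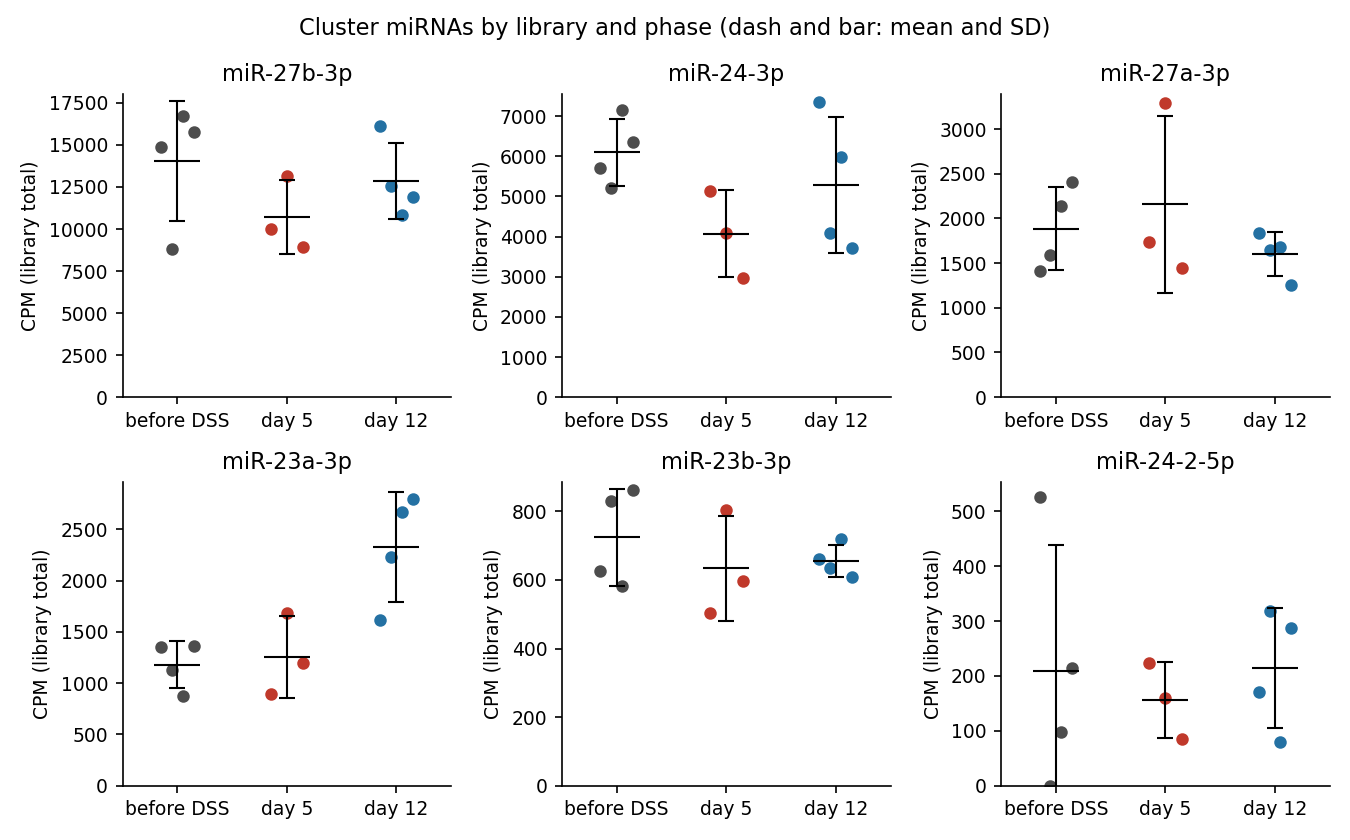
CPM by library total (y axis, from 0) of 6 cluster products in the 3 phases (x axis). Points are libraries, dashes and bars are the mean and SD, with n = 4, 3 and 4, and the bar of miR-24-2-5p before DSS is clipped at 0. All 4 day 12 libraries of miR-23a-3p (1616 to 2796 CPM) lay above the 4 before DSS (874.6 to 1363 CPM), while the 3 phases of miR-27b-3p overlapped.

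The entries for miR-24-3p and miR-3074-5p held the same counts in 10 of 11 libraries, and differed by 1 count in day 12 library 4 (totals of 1376 and 1375). miR-24-2-5p and miR-3074-2-3p likewise matched in 10 of 11 libraries, with totals of 54 and 53 and 1 count between them in before-DSS library 1. The sequences of each pair are shown again with the bases that are perfect reverse complements of the partner in capitals.
miR-24-3p: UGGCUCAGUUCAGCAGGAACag
miR-3074-5p: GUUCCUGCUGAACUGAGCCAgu
miR-24-2-5p: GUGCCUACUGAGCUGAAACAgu
miR-3074-2-3p: UGUUUCAGCUCAGUAGGCAC
In both pairs 20 bases are complementary. Whether the counting used the strand is not given in the sources used here, so reads of miR-24 and of miR-3074 cannot be told apart, and each pair is treated as 1 measurement below. Among the 461 named entries with a RefSeq mature sequence, 16 pairs had at least 18 perfectly complementary bases. In 12 of them the pair held at least 20 counts, and 6 of these 12 agreed exactly in at least 10 of 11 libraries. Equal counts were not general: miR-126a-3p had 504 counts where miR-126b-5p, complementary to it over 19 bases, had 1.

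**Figure D2:**
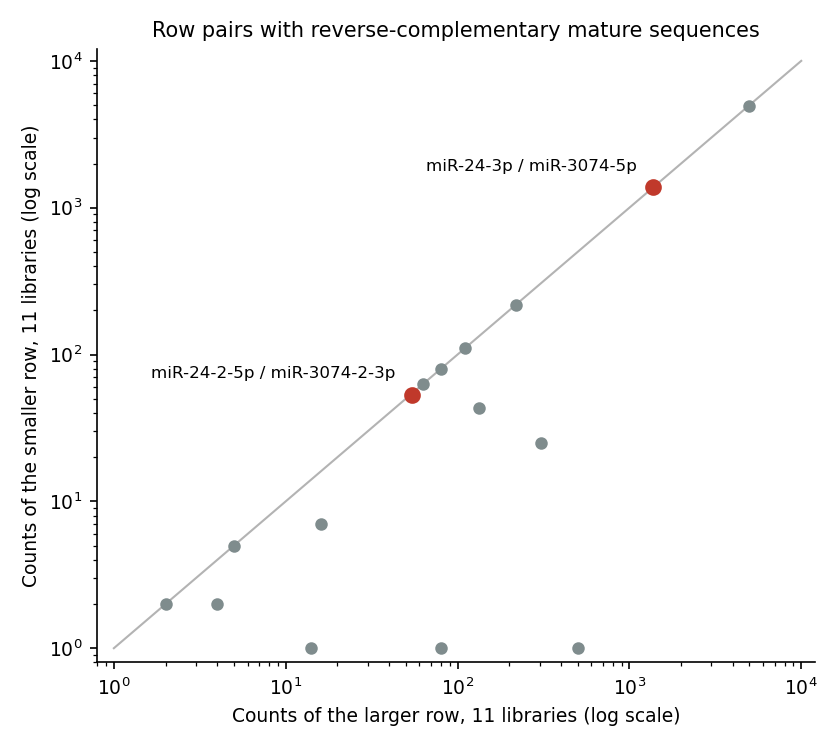
Counts summed over the 11 libraries for 16 pairs of entries with reverse-complementary mature sequences, the larger entry on the x axis and the smaller on the y axis, both logarithmic, with the line of equality. The 2 pairs of miR-24 with miR-3074 (1376 and 1375 counts, 54 and 53 counts) lie on the line, while the pair with 504 counts against 1 lies far below it.

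miR-24-3p is made by both clusters, and the hairpins below show that its count cannot be divided between them. The capitals mark the identical mature miR-24-3p, and only the surrounding bases differ.
Mir24-1, chromosome 13: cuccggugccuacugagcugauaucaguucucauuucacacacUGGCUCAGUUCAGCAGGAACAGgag
Mir24-2, chromosome 8: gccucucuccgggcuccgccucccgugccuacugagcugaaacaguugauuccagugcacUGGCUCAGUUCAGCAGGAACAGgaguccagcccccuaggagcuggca
The arms on the other side of the loop share a seed but differ towards their 3′ ends and in length, with 22 bases in miR-24-2-5p and 23 in miR-24-1-5p. The chromosome 8 arm, miR-24-2-5p, had 54 counts over the 11 libraries and the chromosome 13 arm, miR-24-1-5p, had 2. Most other partner arms were also near the floor, with 1 count of miR-23a-5p, 1 of miR-23b-5p, 9 of miR-27b-5p and 1 of miR-3074-1-3p. The exception was miR-27a-5p, with 91 counts.

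Day 5 was set against before DSS to see how these products stood in acute colitis. None of the 6 tested members passed the threshold, an adjusted p under 0.05 in edgeR's quasi-likelihood test over all entries that passed the filter on low counts. The background was 0% of 137 entries. The filter kept 6 of the 8 members, and miR-24-2-5p and miR-3074-2-3p fell below it. At an unadjusted p under 0.05 the count was 2 of 6 members (24.8% of all tested entries), and both were the same reads, miR-24-3p and miR-3074-5p. DESeq2 and limma-voom called 0 members. All 6 log2 fold changes were below 0, with a median of -0.73 (-0.61 over the 5 distinct entries), where the median of all 137 was 0.03.

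miR-24-3p, which slows cell division in human cells by repressing E2F2 and MYC, had the smallest p of the members on day 5. Before DSS it stood at 5720, 5211, 7143 and 6351 CPM in libraries 1 to 4. On day 5 it stood at 5148, 4095 and 2979 CPM in libraries 1, 3 and 4. All 3 day 5 libraries lay below all 4 before DSS by library total, as they did for 5.11% of the 137 entries, but with TMM factors (edgeR's correction for composition) the highest day 5 library, at 4862, lay above before-DSS library 2, at 4150. No member lay lower without overlap on that scale, against 4.38% of the entries. Its edgeR log2 fold change was -0.97 ± 0.413 (SE, adjusted p = 0.184). The adjusted p of the alternatives ran from 0.0486 to 0.543. The lowest came from the fit with the replicate number as a block, which called miR-24-3p and miR-3074-5p and 16 of all entries. Whether these numbers pair day 5 with before-DSS libraries is uncertain. For miR-27b-3p the log2 fold change was -0.85 ± 0.422 (SE, edgeR adjusted p = 0.255).

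The other members had smaller differences on day 5. By edgeR, miR-23b-3p had a log2 fold change of -0.61 ± 0.413 (SE, adjusted p = 0.409) and miR-23a-3p one of -0.38 ± 0.412 (SE, adjusted p = 0.655). miR-27a-3p had one of -0.25 ± 0.408 (SE, edgeR adjusted p = 0.798). The signs of the last 2 depended on scaling: with library totals only they were 0.08 and 0.19, and the median of all 137 entries moved by 0.31 under that scaling. miR-27a-3p stood at 1735, 3292 and 1447 CPM on day 5 and at 1414, 1586, 2138 and 2404 CPM before DSS. Day 5 library 3 was the highest of all 11 for it, and the other 2 lay within the range before DSS.

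miR-27a-5p, the partner arm of miR-27a-3p, went the other way in value. It stood at 328.8, 302.1, 340.1 and 251.2 CPM before DSS and at 559.5, 803.0 and 766.0 CPM on day 5. Groups of higher day 5 value did not overlap by library total for 16.1% of the 137 entries. Its log2 fold change was 0.78 ± 0.467 (SE, edgeR adjusted p = 0.352), from 28 counts before DSS and 29 on day 5. It met the low-count filter only with the day 5 libraries, where it was high. Its fold change and lack of overlap thus give no independent support for a rise. The ratio of miR-27a-3p to miR-27a-5p counts was 4.30 to 9.57 before DSS, 1.89 to 4.10 on day 5 and 2.63 to 12.5 on day 12. The difference between the arms was not tested. On day 12 miR-27a-5p stood at 146.9, 424.1, 638.1 and 143.4 CPM in libraries 1 to 4, which spread on both sides of its values before DSS. Its edgeR log2 fold change was -0.06 ± 0.438 against before DSS (SE, adjusted p = 0.956) and -0.84 ± 0.461 against day 5 (SE, adjusted p = 0.300).

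Day 12 was set against before DSS to see whether the products were back at their starting levels in recovery. None of the 6 tested members passed the threshold in edgeR, where 6.57% of all 137 entries did. With the replicate number as a block, 15 of all entries and 0 members passed, against 9 entries without it. At an unadjusted p under 0.05 there was 1 member, miR-23a-3p, against 16.8% of all entries, and DESeq2 and limma-voom called 0 members. The median log2 fold change of the 6 members was -0.19, beside -0.02 for all 137 entries. No member lay lower without overlap, against 4.38% of the entries by library total and 2.92% with TMM factors.

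miR-23a-3p had the highest values of any member relative to before DSS. It stood at 1348, 1133, 874.6 and 1363 CPM in before-DSS libraries 1 to 4. On day 5 it stood at 895.3, 1686 and 1192 CPM in libraries 1, 3 and 4. On day 12 it stood at 1616, 2227, 2672 and 2796 CPM in libraries 1 to 4. All 4 day 12 libraries lay above all 4 before DSS, both by library total, as for 9.49% of the 137 entries, and with TMM factors, as for 8.76%. The mean was 1180 ± 229 CPM before DSS (SD, n = 4) and 2328 ± 534 CPM on day 12 (SD, n = 4), from 112 and 253 counts. The edgeR log2 fold change was 0.91 ± 0.366 (SE), with an adjusted p of 0.209 and a range of 0.109 to 0.663 over the alternatives. It was 0.64 without day 12 library 4, 0.62 without both that library and before-DSS library 2, and 0.64 when miR-23a-3p and miR-23b-3p were counted as 1 entry.

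The other tested members had smaller differences between day 12 and before DSS, and not passing the threshold does not show that their levels were equal. miR-23b-3p stood at 624.6, 830.8, 583.1 and 861.1 CPM before DSS and at 661.2, 636.2, 717.9 and 609.5 CPM on day 12. All 4 day 12 libraries lay within its range before DSS, and its log2 fold change was -0.17 ± 0.363 (SE, edgeR adjusted p = 0.860). By edgeR, the log2 fold change on day 12 was -0.28 ± 0.372 for miR-27a-3p (SE, adjusted p = 0.738), -0.16 ± 0.381 for miR-27b-3p (SE, adjusted p = 0.872) and -0.22 ± 0.370 for miR-24-3p (SE, adjusted p = 0.806). For miR-24-3p the day 12 libraries spread from 7347 and 5983 CPM in libraries 1 and 3 to 4082 and 3729 CPM in libraries 2 and 4. Library 1 lay above and libraries 2 and 4 lay below its range before DSS, 5211 to 7143 CPM.

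miR-23a-3p and miR-27a-3p are cut from the same primary transcript on chromosome 8, and the ratio of their counts varied both within and between phases. There were 1.05 to 2.44 counts of miR-27a-3p per count of miR-23a-3p before DSS, 1.21 to 1.95 on day 5 and 0.449 to 1.14 on day 12. The ranges before DSS and on day 12 overlapped slightly, and this ratio was not tested.

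Between day 12 and day 5 none of the 6 tested members passed in edgeR, where 3.65% of 137 entries did (2.92% higher on day 12). With the replicate block 14 entries and 0 members passed, against 5 entries without it. At an unadjusted p under 0.05 there was 1 member, miR-23a-3p, against 19% of all entries. Its log2 fold change was 1.29 ± 0.413 (SE, edgeR adjusted p = 0.111). DESeq2 called it, with a log2 fold change of 1.30 and an adjusted p of 0.0281, and limma-voom called 0 members. By library total its groups overlapped (4.38% of the entries were higher without overlap), since day 12 library 1 (1616 CPM) lay below day 5 library 3 (1686 CPM). With TMM factors all 4 day 12 libraries lay above all 3 of day 5, as for 8.76% of the entries. On that scale miR-27a-5p lay lower without overlap, as for 7.3% of the entries, but it met the low-count filter only with the day 5 libraries.

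For the other members between day 12 and day 5, the edgeR log2 fold change was 0.75 ± 0.411 for miR-24-3p (SE, adjusted p = 0.300), 0.69 ± 0.420 for miR-27b-3p (SE, adjusted p = 0.353), 0.45 ± 0.411 for miR-23b-3p (SE, adjusted p = 0.576) and -0.03 ± 0.406 for miR-27a-3p (SE, adjusted p = 0.949). The sign of miR-27a-3p turned under several alternatives. Both comparisons with day 5 use the same 3 libraries, and both comparisons with before DSS the same 4.

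**Figure D3:**
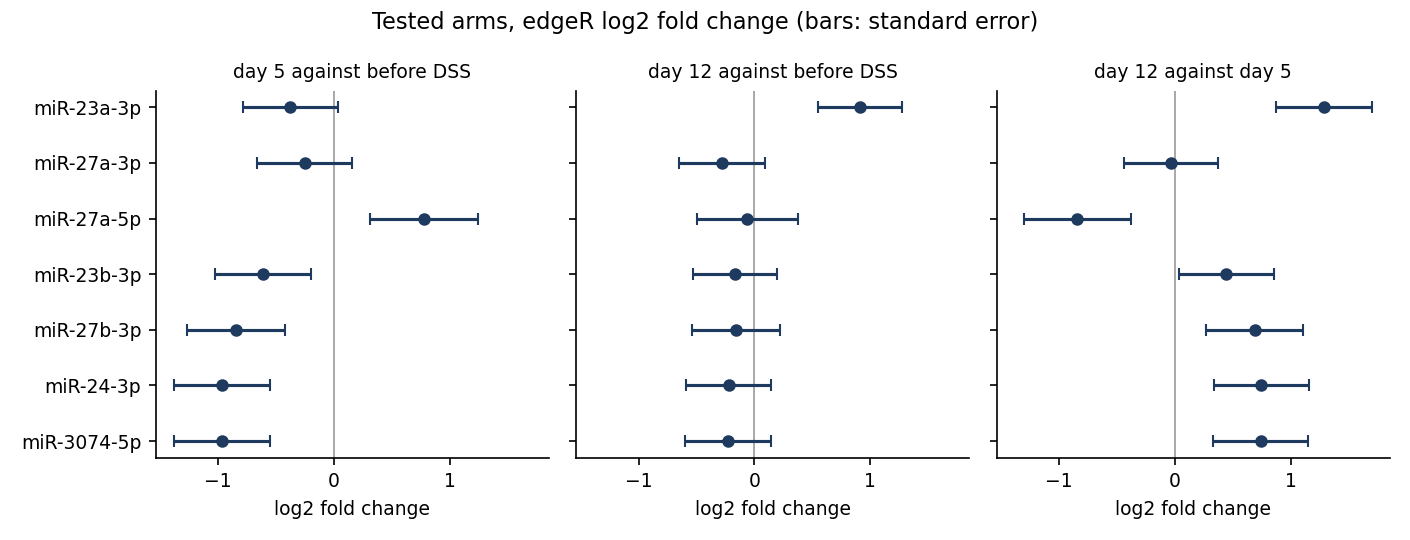
edgeR log2 fold changes (x axis) of the 7 tested arms in the 3 comparisons, with bars for the standard error. miR-23a-3p has the highest point in both day 12 panels (0.91 and 1.29), and miR-27a-5p has the only point above 0 on day 5 (0.78), and none of the points passed the adjusted threshold in this test.

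The share of each pair that came from the chromosome 8 copy does not depend on how libraries were scaled. It can depend on how short or mismatched reads were assigned between the copies, and the aligner is not given in the sources used here. miR-23a-3p made up 68.3%, 57.7%, 60.0% and 61.3% of the miR-23 counts in before-DSS libraries 1 to 4. On day 5 it made up 64.0%, 67.7% and 66.7% in libraries 1, 3 and 4. On day 12 it made up 71.0%, 77.8%, 78.8% and 82.1% in libraries 1 to 4. Each of the 4 day 12 libraries lay above all 7 earlier ones. The mean was 61.8% ± 4.58 before DSS (SD, n = 4), 66.1% ± 1.93 on day 5 (SD, n = 3) and 77.4% ± 4.68 on day 12 (SD, n = 4).

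Day 12 exceeded before DSS by 15.6 percentage points, and leaving out each library in turn gave 14.0 to 17.8 points. The exact two-sided permutation test gave p = 0.0286, the smallest that 4 against 4 libraries allow. After adjustment over the 6 share tests the p was 0.114. At these group sizes no share test could pass the threshold used for edgeR after that adjustment, even with every test at its smallest p. Not passing it therefore cannot decide whether the shares differ. Day 12 exceeded day 5 by 11.3 points, with an exact permutation p of 0.0571, the smallest that 4 against 3 libraries allow, and an adjusted p of 0.114. Day 5 exceeded before DSS by 4.31 points, with an exact permutation p of 0.229 and an adjusted p of 0.274. Summed over libraries, 112 of 178 miR-23 counts were miR-23a-3p before DSS (62.9%, 95% Wilson interval 55.6 to 69.7) and 253 of 327 on day 12 (77.4%, 72.5 to 81.6). Single libraries held 21 to 95 miR-23 counts, so their own intervals were wide, and intervals and floors cover counting error only.

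For miR-27 the chromosome 8 copy was the minor one. miR-27a-3p made up 8.67%, 15.2%, 11.3% and 13.2% of the miR-27 counts in before-DSS libraries 1 to 4. On day 5 it made up 14.8%, 20% and 13.9% in libraries 1, 3 and 4. On day 12 it made up 10.2%, 11.6%, 13.4% and 9.54% in libraries 1 to 4. Here all 3 day 5 libraries lay above all 4 of day 12, while day 5 and before DSS overlapped, as did day 12 and before DSS.

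The miR-27a-3p share on day 12 differed from that on day 5 by -5.05 points, with an exact two-sided permutation p of 0.0571, the smallest possible, and an adjusted p of 0.114. It was 4.12 points higher on day 5 than before DSS (exact permutation p = 0.171, adjusted p = 0.257) and differed by -0.94 points between day 12 and before DSS (exact permutation p = 0.571, adjusted p = 0.571). The shares of the chromosome 8 copy thus stood highest on day 12 for miR-23 and on day 5 for miR-27. Whether the difference between phases differs between the pairs was not tested.

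**Figure D4:**
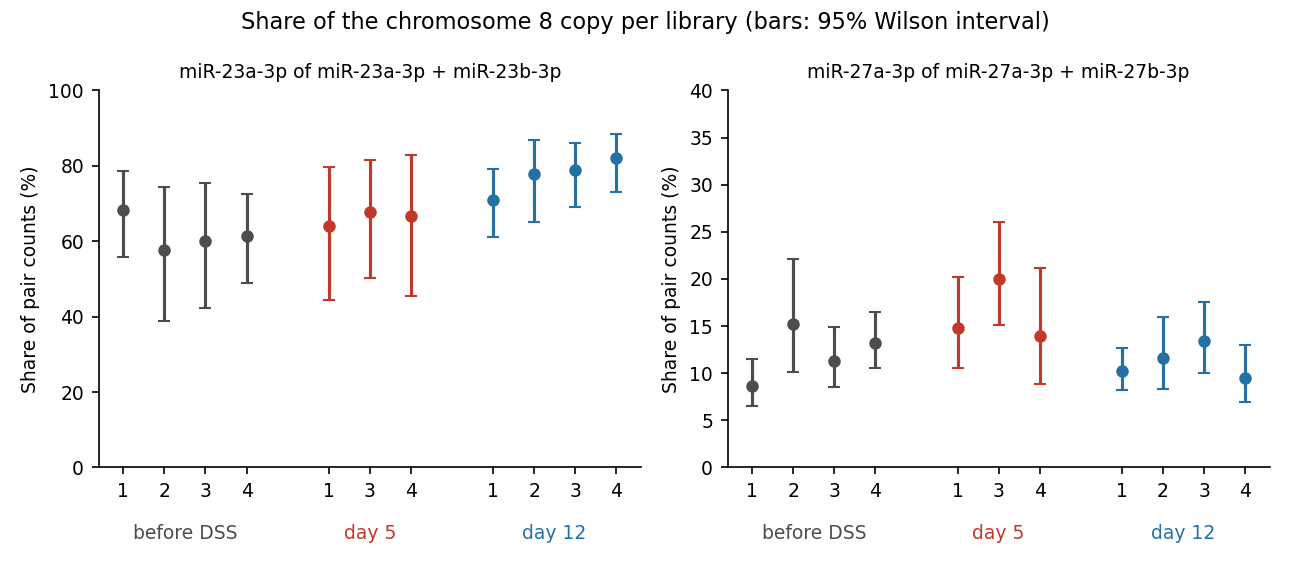
Share in percent (y axis, from 0) of pair counts held by the chromosome 8 copy in each library (x axis, by number in the deposited column), for miR-23 on the left and miR-27 on the right, with 95% Wilson intervals for counting error. The day 12 libraries lie at 71.0% to 82.1% on the left, above the 57.7% to 68.3% of the earlier libraries, and on the right the y axis ends at 40%.

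The members below the filter were sparse. miR-24-2-5p had 16, 0, 2 and 6 counts in before-DSS libraries 1 to 4. It had 4, 2 and 1 on day 5 and 7, 6, 2 and 8 on day 12. The mean was 210 ± 229 CPM before DSS (SD, n = 4), 157 ± 69.4 on day 5 (SD, n = 3) and 214 ± 109 on day 12 (SD, n = 4), and the phases overlapped. The 0 counts of before-DSS library 2 allow up to 226.6 CPM. By exact permutation tests (two-sided, on log2(CPM + 1)) the values were p = 0.914, 0.629 and 0.514 for day 5 against before DSS, day 12 against before DSS and day 12 against day 5. All were 0.914 after adjustment over the 6 tests of the members below the filter. miR-3074-2-3p, with nearly equal counts, gave p = 0.914, 0.6 and 0.514 in the same exact permutation tests.

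The tested entries with patterns most like each member, by Pearson correlation of log2 CPM with TMM factors over the 11 libraries and 131 other entries, differed between the miR-23 copies. For miR-23a-3p they were miR-652-3p (0.86), miR-21a-5p (0.84) and miR-26b-5p (0.75). For miR-23b-3p they were miR-26a-5p (0.89), miR-1839-5p (0.83) and miR-30b-5p (0.73). For miR-27b-3p they were miR-378a-3p (0.92), miR-1839-5p (0.91) and miR-192-5p (0.88), and for miR-24-3p miR-200a-5p (0.88), miR-1839-5p (0.87) and miR-192-5p (0.87). miR-27a-3p was nearest to miR-1839-5p (0.79), let-7b-5p (0.77) and miR-98-5p (0.74). Of these, miR-652-3p was higher on day 12 than before DSS in edgeR (log2 fold change 2.10, adjusted p = 0.0301). It held at most 263.0 CPM before DSS and 340.5 on day 5, and at least 563.2 on day 12. It thus met the low-count filter only through day 12, where it is high, so this call gives no independent support. Among the members themselves, miR-27b-3p and miR-24-3p were nearest each other (0.86), and miR-23a-3p was farthest from its own cluster mate miR-27a-3p (0.19). All these values share the libraries' depth and scaling and are given as descriptions.

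Marker lists of cell types that feces can hold were summed in each library. In bulk RNA, fewer cells of a type and less RNA per cell cannot be told apart. The leukocyte list had 6 of 6 members in the table, and its summed level was 48.6 to 215.3 CPM before DSS, 963.5 to 2468 CPM on day 5 and 6097 to 9501 CPM on day 12. The 4 of its members that were tested, both arms of miR-223 and of miR-142a, all passed as higher on day 12 than before DSS in edgeR. Of these, 1 passed as higher than on day 5. miR-150-5p and miR-155-5p, with 28 and 11 counts, were not tested. The whole list held 11 counts before DSS and 825 on day 12. The tested entries thus met the low-count filter only through the phases where they are high, so these calls give no independent support. The endothelium list (miR-126a, miR-221 and miR-222, 4 of 4 in the table) ran from 2942 to 7251 CPM before DSS, 5819 to 11482 CPM on day 5 and 2228 to 7528 CPM on day 12.

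The intestinal epithelium list (8 of 8 in the table) ran from 122130 to 220237 CPM before DSS, 59178 to 181345 CPM on day 5 and 114585 to 203958 CPM on day 12. The smooth muscle and stroma list (6 of 6) ran from 5382 to 11934, 7889 to 12928 and 1757 to 9596 CPM, and the erythroid list (3 of 4 matched by name) from 6961 to 16616, 21921 to 37705 and 4114 to 24558 CPM in the same order. None of the tested members of these 3 lists or of the endothelium list passed the edgeR threshold in any of the 3 comparisons. The part of any of these cell types in the values of the cluster products was not tested.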

How the data were processed

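Per the labels' protocols, fecal RNA (mirVana kit) was made into TruSeq small RNA libraries and sequenced on an Illumina HiSeq, and ACGT101-miR took out low-quality reads, other RNA classes and repeats. Not given in the sources used here are the aligner, strand setting, miRNA release and build. The authors deposited a raw read count for each of 616 entries in 11 libraries. A further 11 columns of scaled values were not used. Totals are miRNA counts after those filters, so they are not sequencing depth.

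Day 12 columns were matched to titles by their number. The before-DSS columns are labelled D1, while the titles read DSS0. The day 5 columns are numbered 1, 3 and 4, while the titles number them 1 to 3. Both sets were therefore assigned to their group only. Counts were tested with edgeR 4.0.16 in R 4.3.3 (quasi-likelihood F-test, TMM factors, default low-count filter with a minimum count of 10, 137 entries kept, Benjamini-Hochberg adjustment over all of them), with the 3 groups in 1 fit. Shares and members below the filter were compared with exact permutation tests in scipy 1.17.1. The edgeR fit was also run on counts simulated with the spread of these data, with differences set on day 12 only. Its outcome is not reported here. Within each group, all pairs of libraries differed beyond sampling noise (lowest chi-square over its degrees of freedom 3.85). Same-numbered libraries of day 12 and before DSS, and of day 12 and day 5, all had correlations over 0.1 in their deviations from the group means. Those of day 5 and before DSS ran from -0.10 to 0.13. Among pairs of unlike number, 6 of 30 also exceeded 0.1, and the highest reached 0.46. Any pairing comes from these values and not from the labels, and it is uncertain. Alternatives were other scalings, filters and tools (DESeq2 1.42.0, limma-voom 3.58.1), a replicate block, merged or removed entries and left-out libraries. Leaving out both libraries that stand apart was added after seeing the data. All 8 members are named, with the 3 most alike entries for each tested one, and the members and lists were chosen with earlier results of these data known. Sequences are from RefSeq.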

Additional observations from a re-analysis of the deposited data

How the results depend on the processing

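No tested member passed in any of the 3 comparisons in 67 of 69 alternative counts. Between day 5 and before DSS, where pairing by number is uncertain, the replicate block called 2 members. They were miR-24-3p and miR-3074-5p with the same reads (log2 fold change -1.21, edgeR adjusted p = 0.0486). DESeq2 called 1 between day 12 and day 5, miR-23a-3p (1.30). The replicate block changed no other call of a member. In the fit with that block miR-23a-3p had an edgeR adjusted p of 0.153 for day 12 against before DSS and 0.0575 against day 5. In pairwise correlations of their deviations from the group means, 5 of 11 libraries correlated best with one of their own number. Of all tested entries the block called 16, 15 and 14 in the 3 comparisons in order, against 0, 9 and 5 without it, and no filter on low counts gave 15, 17 and 21, DESeq2 5, 12 and 12.

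Some signs turned, none with a call. On day 5 against before DSS, library totals only gave 0.079 for miR-23a-3p and 0.19 for miR-27a-3p, and leaving out libraries gave -0.58 to -0.18 and -0.60 to 0.028. On day 12 against before DSS, leaving out libraries gave -0.29 to 0.067 for miR-23b-3p, -0.41 to 0.089 for miR-27b-3p, -0.58 to 0.090 for miR-24-3p and -0.59 to 0.086 for miR-3074-5p. Merging miR-23a-3p and miR-23b-3p gave 0.64, a value of the pair total and not a turned sign of miR-23b-3p. In the same comparison miR-27a-5p was 0.11 with library totals only, 0.022 with no filter, 0.011 with at least 10 CPM in at least 3 libraries, 0.039 with only the groups compared, 0.082 without both libraries that stand apart, and -0.42 to 0.13 leaving out libraries. On day 12 against day 5, miR-27a-3p was 0.012 with no filter, 0.12 with the replicate block, 0.028 without both libraries, and -0.26 to 0.31 leaving out libraries. Merging miR-27a-3p and miR-27b-3p gave 0.46, again a value of the pair total. The miR-27a-3p share on day 12 less that before DSS was 0.64 points without both libraries and -2.09 to 0.094 leaving out libraries. The cause was not tested. All other share differences kept their sign. At 11749 to 40835 counts per library, products below about 255.3 CPM can be missed in a single library.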
